A study of Mus musculus with 32 samples.

Results

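The transcriptional effect of mutant SOD1 was compared between lumbar spinal motor neurons and the glia around them, as the difference between 2 log ratios of transgenic over control, motor neurons minus glia. The members are the 16 arrays titled SODmn or SODgl, of 32 in the series, which were 8 motor neuron arrays (4 pairs of mice) and 8 glia arrays (4 pairs). Each pair set an extract of a transgenic mouse against that of a nontransgenic littermate on 2 arrays with the dyes exchanged, and the mean of those 2 arrays is 1 replicate (n = 4 pairs per cell type). Transgenic mice were B6SJL-Tg(SOD1-G93A)1Gur females of 8 weeks, which carry a human SOD1 gene with the G93A mutation, and controls were B6SJL littermates of the same age and sex. By laser capture, 500 cells per mouse were cut from cresyl violet-stained lumbar sections of 12 µm, with motor neurons identified by the help of an anatomical atlas and glia taken from around them, so a glia extract was not sorted by glial type. The remaining 16 arrays hold the same 2 cell types from B6D2F1-Tg(TAU-P301L) females of 16 weeks and their B6D2F1 littermates, and are used here for a scale of control motor neurons against control glia and for 1 comparison. Nothing in the labels states whether the motor neurons and the glia of a given replicate number came from the same mice.

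SOD1 encodes the copper-zinc superoxide dismutase, and dominant mutations in it cause a familial form of amyotrophic lateral sclerosis, in which motor neurons die. Mice carrying SOD1-G93A develop progressive paralysis, and the animals here were sampled at an age at which these mice are usually regarded as presymptomatic. Work with cell type-specific transgenes has shown that mutant SOD1 in motor neurons and mutant SOD1 in astrocytes and microglia contribute separately to the course of the disease, so the same allele can be read in 2 cellular settings.

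A gene was tested when it was well above background, by the scanner software's own call on both arrays of a pair, in at least 4 of 8 extracts of motor neurons or of glia. This held for 13933 of 27540 genes or single probes. Of these, 9755 were well above background in both cell types, 3499 in motor neurons alone and 679 in glia alone. Genes with a value in all 8 pairs numbered 8434 among the 9755, and counts below refer to these unless another base is given. No gene was well above background in all 8 extracts of one cell type and in 0 extracts of the other, so by this strict rule detection gave no gene confined to motor neurons or to glia. Detection still differed short of that rule. Uts2b was well above background in 7 of 8 motor neuron and 0 of 8 glia extracts, and Prph in 5 and 0. Fewer cells of a type and less RNA per cell cannot be told apart in such extracts.

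Markers on the lists of neurons and of glia were detected in both kinds of extract. The share of spots well above background ran from 14.9% to 58.1% in Cy5 and from 56.3% to 77.6% in Cy3 on motor neuron arrays, and from 18.6% to 72.02% in Cy5 and from 50.9% to 65.9% in Cy3 on glia arrays. Of 25 motor neuron markers, 24 were well above background in at least 4 of 8 motor neuron extracts and 18 in at least 4 of 8 glia extracts. Slc5a7, the choline transporter of cholinergic neurons, averaged a normalised log2 intensity of 8.99 in control motor neurons and 7.40 in control glia, whereas Chat, which makes acetylcholine, was dim in both (well above background in 4 and 3 of 8 extracts). Other markers went the other way, among them Isl1 (6.53 in control motor neurons, 7.11 in control glia) and Lhx4 (6.62 and 7.56). Over the list the median control level was 6.98 in motor neurons and 6.94 in glia. More motor neuron than glia extracts were well above background for 7 markers, and more glia than motor neuron extracts for 13. Oligodendrocyte markers were abundant in both cell types, with Mbp, a myelin protein, at 11.79 in control motor neurons and 12.82 in control glia. The mean level of the astrocyte list ranged from 7.23 to 8.29 in transgenic motor neuron extracts, from 7.14 to 8.10 in control motor neuron extracts, from 8.43 to 8.96 in transgenic glia extracts and from 8.38 to 8.85 in control glia extracts. The motor neuron list ranged from 7.26 to 8.25, from 7.43 to 8.55, from 7.46 to 7.66 and from 7.14 to 7.76 in the same 4 sets.

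The dye-swapped arrays of a pair did not always run together. After both were turned to transgenic over control, they correlated over probes at 0.49, 0.18, -0.00 and 0.64 in motor neuron pairs 1 to 4, and at -0.20, -0.50, 0.36 and 0.44 in glia pairs 1 to 4. Values without glia pairs 1 and 2 are given below for the counts, the control scale and the gene lists they move. Every motor neuron array was scanned in other sessions than the glia arrays, and the file headers name version 8.5.1.1 of the scanner software for motor neurons and 9.5.1.1 for glia, so scan, software version and cell type cannot be told apart. Mouse Sod1 itself had log2 ratios of -0.06, -0.25, -0.15 and 0.13 in motor neurons and -0.11, -0.45, -0.16 and 0.29 in glia. The pairs of the 2 cell types overlapped, and the difference was 0.03 ± 0.13 (SE, limma, adjusted p = 0.958), with a sign that turned under 8 of 25 other settings. The files do not say whether this mouse probe reads the human transgene, so it does not check the genotype.

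No gene passed the test of the difference. With limma and Benjamini-Hochberg adjustment over 13933 genes, 0 genes (0%) had an adjusted p under 0.05 and the lowest was 0.135, while 1611 (11.6%) had an unadjusted p under 0.05, against 697 that are 5% of the genes tested. Within motor neurons 0 of 13254 genes passed (1244, or 9.39%, unadjusted), and within glia 0 of 10434 passed (1557, or 14.9%, unadjusted). Estimating the spread over all genes on the array, dim ones included, gave 0 genes for the difference, 1 for motor neurons (Sel1l3, adjusted p = 0.0193) and 8 for glia (all at adjusted p = 0.0469: Nup54, Akr1cl, Ammecr1l, Taok1, Ints3, Ank3, Muc6 and Slc6a6), a setting chosen after seeing the data. Over 8434 genes the median log2 ratio was 0.01 in motor neurons and 0.02 in glia. Loess centres each array near 0, so these medians do not measure the size of single effects. The median SD over pairs was 0.17 in motor neurons and 0.15 in glia. As no gene passed for the difference, the genes below are ranked by unadjusted p and their values describe these 8 pairs.

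Opposite effects were counted gene by gene, as a log ratio of 1 sign in all 4 pairs of a cell type and of the other sign in all 4 pairs of the other. In 111 genes (1.32% of 8434) the ratio was above 0 in every motor neuron pair and below 0 in every glia pair, and in 32 genes (0.379%) the reverse held. For comparison, 54 genes (0.64%) were above 0 in all 8 pairs and 24 (0.285%) below 0 in all 8. The direction depended on the dye: on the arrays with the transgenic extract in Cy5 alone the counts were 280 and 11, and on those with it in Cy3 alone 5 and 37. Without glia pairs 1 and 2, which leaves fewer pairs to satisfy, they were 245 and 154.

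Among the 111, 91 carry a gene symbol, and the 8 with the smallest p of the difference include secreted, adhesion and RNA-binding proteins. Ybx2, a Y-box RNA-binding protein known from germ cells, had log2 ratios of 0.24, 0.11, 0.60 and 0.56 in motor neurons and -0.21, -0.24, -0.37 and -0.47 in glia. Its groups did not overlap, and the difference was 0.70 ± 0.13 (SE, adjusted p = 0.135, limma). Nbl1, a secreted antagonist of bone morphogenetic proteins, had 0.31, 0.23, 0.75 and 0.32 in motor neurons and -0.13, -0.60, -1.52 and -0.48 in glia, a difference of 1.08 ± 0.23 (adjusted p = 0.135, limma). Pair 3 was the lowest in glia and the highest in motor neurons. Armcx6, an armadillo repeat protein of the X chromosome, had 0.01, 0.25, 0.30 and 0.39 in motor neurons and -0.19, -0.34, -0.29 and -0.60 in glia. Ace, the angiotensin-converting enzyme, had smaller ratios, with 0.05, 0.04, 0.15 and 0.12 in motor neurons and -0.14, -0.09, -0.23 and -0.30 in glia. The tight-junction protein gene Cldn3 had 0.04, 0.01, 0.23 and 0.30 in motor neurons and -0.17, -0.11, -0.30 and -0.33 in glia. Motor neuron pairs 3 and 4 lay above pairs 1 and 2 for both Ace and Cldn3. Of 3 further genes known by clone names, A730081D07Rik averaged 0.38 ± 0.36 in motor neurons and -0.38 ± 0.16 in glia (SD, n = 4 pairs), 4930556M19Rik 0.12 ± 0.09 in motor neurons and -0.30 ± 0.16 in glia, and 2700046A07Rik differed by 0.33 (motor neurons 0.16, glia -0.18).

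In the reverse direction 29 of the 32 genes carry a symbol, and the first 8 hold a phosphoinositide kinase subunit, protein turnover factors and a kinesin adaptor. Pik3r6, a regulatory subunit of phosphoinositide 3-kinase gamma, had -0.22, -0.11, -0.36 and -0.05 in motor neurons and 0.03, 0.25, 0.24 and 0.24 in glia, a difference of -0.38 ± 0.08 (SE, adjusted p = 0.135, limma). Glia pair 1 lay close to 0 while the other glia pairs were alike. Fbxw11, an F-box protein that brings substrates to the SCF ubiquitin ligase, had -0.14, -0.16, -0.22 and -0.51 in motor neurons and 0.08, 0.12, 0.32 and 0.08 in glia. Pmpca, the alpha subunit of the mitochondrial processing peptidase, had -0.22, -0.11, -0.17 and -0.13 in motor neurons and 0.20, 0.00, 0.32 and 0.04 in glia. Both genes were separated by sign in all pairs, although 2 of the 4 glia values of Pmpca were nearly 0. Ubash3b, a tyrosine phosphatase that holds down receptor signalling, had -0.05, -0.42, -0.20 and -0.18 in motor neurons and 0.30, 0.33, 0.45 and 0.20 in glia, a difference of -0.53 ± 0.14 (SE, adjusted p = 0.135, limma). Kifap3, which links cargo to heterotrimeric kinesin-2, had -0.19, -0.05, -0.15 and -0.29 in motor neurons and 0.08, 0.10, 0.57 and 0.14 in glia. The other 2 Kifap3 probes gave differences of 0.01 and -0.14 against -0.39 ± 0.11 (SE) for the brightest probe. Zfyve19, an abscission checkpoint protein, differed by -0.24 ± 0.06, Wdr83os, a protein of the endoplasmic reticulum, by -0.36 ± 0.09, and Eif3a, the largest subunit of translation initiation factor 3, by -0.35 ± 0.10 (SE).

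**Figure D1:**
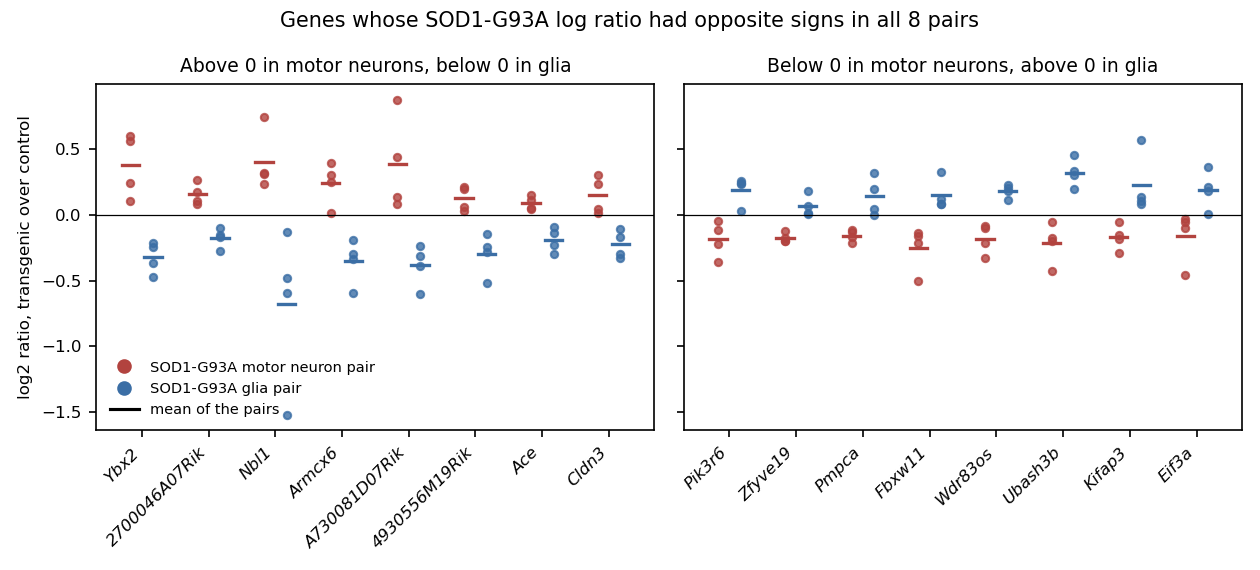
Log2 ratio of transgenic over control (vertical axis) for the 8 named genes of each direction of opposite effects, with 1 point per littermate pair, motor neurons in red left of glia in blue, and a bar at the mean of 4 pairs. Every motor neuron point lies on the other side of 0 from every glia point, with Nbl1 in glia pair 3 the farthest from 0 at -1.52.

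Promoter sequence was not used in choosing these genes and is a feature on which the 2 directions can be compared. RefSeq promoters (250 bases before to 50 after the first listed start, GRCm38.p6) were found for 74 of the 91 genes above 0 in motor neurons and below 0 in glia, 23 of the 29 of the reverse, and 5894 of 7416 genes with a symbol measured in both. CpG dinucleotides numbered a median of 14 (quartiles 4 and 26.75) in the 74, 18 (13 and 29.5) in the 23 and 20 (10 and 28) in the 5894. Fewer than 5 CpG were counted in 24 of 74 (32.4%), in 1 of 23 (4.35%) and in 741 of 5894 (12.6%). In the quintile of genes highest in control glia over control motor neurons, where 93 of the 111 lay, the median was 17 CpG and 211 of 1110 promoters (19.01%) had fewer than 5, against 60 of 1238 (4.85%) in the quintile highest in control motor neurons. The letters TATAAA on either strand were found in 14 of 74 (18.9%), 1 of 23 (4.35%) and 552 of 5894 (9.37%), and CCAAT in 29 of 74 (39.2%), 9 of 23 (39.1%) and 2320 of 5894 (39.4%). These counts are descriptions of windows and say nothing of a factor. The threshold of 5 and the motifs were chosen after the genes were known.

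The promoters with the most and the fewest CpG among the named genes of each direction are printed to show that range, 5′ to 3′ in the direction of the gene, with each CG in capitals. Above 0 in motor neurons and below 0 in glia, these are Nbl1 (chr4:139092921-139093220, minus strand, 43 CpG) and Cldn3 (chr5:134985964-134986263, plus strand, 9 CpG). For the reverse they are Pmpca (chr2:26389098-26389397, plus strand, 55 CpG) and Ubash3b (chr9:41158013-41158312, minus strand, 5 CpG).
Nbl1: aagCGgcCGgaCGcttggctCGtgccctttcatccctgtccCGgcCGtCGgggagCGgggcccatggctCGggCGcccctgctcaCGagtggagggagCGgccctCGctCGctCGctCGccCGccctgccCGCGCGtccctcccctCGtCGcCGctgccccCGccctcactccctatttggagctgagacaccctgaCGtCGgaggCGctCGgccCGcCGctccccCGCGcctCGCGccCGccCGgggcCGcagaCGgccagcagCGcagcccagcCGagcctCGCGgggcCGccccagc
Cldn3: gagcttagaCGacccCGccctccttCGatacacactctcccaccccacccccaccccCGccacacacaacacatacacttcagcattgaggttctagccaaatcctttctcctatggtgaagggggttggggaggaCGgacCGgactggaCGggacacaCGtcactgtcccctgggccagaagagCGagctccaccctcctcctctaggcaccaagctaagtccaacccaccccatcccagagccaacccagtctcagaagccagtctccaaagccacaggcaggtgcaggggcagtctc
Pmpca: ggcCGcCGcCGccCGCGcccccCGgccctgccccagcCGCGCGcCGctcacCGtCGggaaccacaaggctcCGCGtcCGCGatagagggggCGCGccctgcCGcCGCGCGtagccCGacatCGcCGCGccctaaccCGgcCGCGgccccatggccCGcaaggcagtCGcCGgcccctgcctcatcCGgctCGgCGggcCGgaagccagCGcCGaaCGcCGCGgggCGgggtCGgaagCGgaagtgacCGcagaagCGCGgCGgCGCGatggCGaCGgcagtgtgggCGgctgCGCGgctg
Ubash3b: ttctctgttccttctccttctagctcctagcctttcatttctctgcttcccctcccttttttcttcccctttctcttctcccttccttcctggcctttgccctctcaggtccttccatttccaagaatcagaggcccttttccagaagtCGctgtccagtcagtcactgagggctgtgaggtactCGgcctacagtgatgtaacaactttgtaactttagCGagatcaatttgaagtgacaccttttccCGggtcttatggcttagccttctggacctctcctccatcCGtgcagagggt

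Cell types could also differ where only one of them kept to 1 side of 0. Pairs of the 2 cell types did not overlap in 535 genes (6.34%) with motor neurons above and in 182 (2.16%) with motor neurons below, and an unadjusted p under 0.05 was found for 797 (9.45%) and 401 (4.75%). Muc6, a gel-forming mucin of stomach, had 0.11, -0.04, 0.20 and 0.14 in motor neurons and -0.19, -0.30, -0.24 and -0.46 in glia. Akr1cl, an aldo-keto reductase, had 0.04, -0.05, 0.12 and 0.14 in motor neurons and -0.32, -0.24, -0.28 and -0.56 in glia. In both the glia pairs were all below 0 and the motor neuron pairs lay around 0, with differences of 0.40 ± 0.08 and 0.41 ± 0.08 (SE, adjusted p = 0.135 each, limma). Xpo5, which exports microRNA precursors from the nucleus, had -0.08, 0.16, 0.45 and 0.53 in motor neurons and -0.30, -0.58, -0.27 and -0.44 in glia. Sfxn4, a mitochondrial sideroflexin, differed by 0.30 ± 0.06 (SE) on its brightest probe and by -0.02 on its other probe. Slc39a2, a zinc importer, differed by 0.30 ± 0.06 in a fit that lacks glia pair 2, where a spot was marked as an outlier.

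On the other side, Oxct1, the mitochondrial enzyme that activates ketone bodies for oxidation, had -0.02, -0.41, 0.07 and -0.29 in motor neurons and 0.13, 0.63, 0.89 and 0.62 in glia. All glia pairs lay above all motor neuron pairs, a difference of -0.73 ± 0.18 (SE, adjusted p = 0.135, limma), while the other 2 Oxct1 probes gave -0.13 and -0.11. Ankrd6, an ankyrin repeat protein of Wnt signalling, had -0.43, -0.51, -0.38 and -0.66 in motor neurons and -0.14, 0.05, 0.60 and 1.12 in glia. Its motor neuron pairs lay close together and its glia pairs far apart, with no overlap. Psmd11, a subunit of the proteasome lid, had -0.17, -0.11, -0.23 and -0.21 in motor neurons and 0.16, 0.36 and 0.11 in the 3 glia pairs with a value (pair 2 was dropped), a difference of -0.39 ± 0.07 (SE, adjusted p = 0.135, limma). Differences of like rank were found for Myh14, a non-muscle myosin heavy chain, at -0.55 ± 0.12 (SE) with motor neuron pair 2 dropped. Ubn2, a protein that binds the HIRA histone chaperone, was at -0.35 ± 0.08 (SE), and its other probe at -0.11. Tars, the threonyl-tRNA synthetase, was at -0.30 ± 0.07 (SE) with glia pair 2 dropped.

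**Figure D2:**
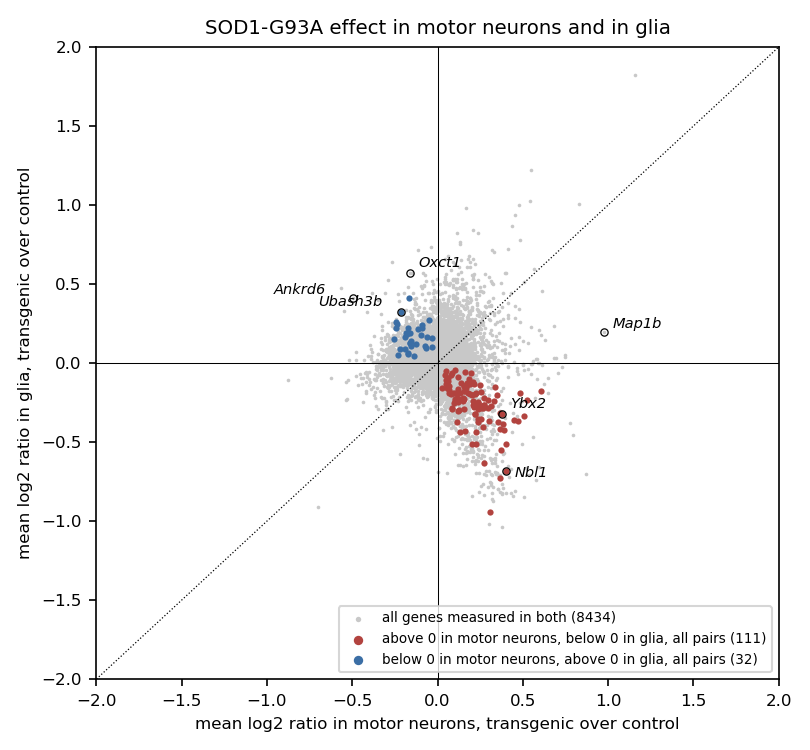
Mean log2 ratio of transgenic over control in motor neurons (horizontal axis) and in glia (vertical axis) for 8434 genes measured in both, with the 111 and 32 genes of opposite sign in all pairs in red and blue and 6 named genes circled. The red points fill the lower right and the blue points the upper left by construction, and the dotted line marks equal effects.

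Effects seen in one cell type alone were defined as 1 sign in all 4 pairs there, with mixed signs and a mean within 0.1 of 0 in the other. Of 7416 genes with a symbol, 197 (2.66%) were above 0 and 380 (5.12%) below 0 in motor neurons alone, and 571 (7.7%) were above 0 and 292 (3.94%) below 0 in glia alone. That a gene was near 0 in the other cell type does not show that the effects differ, so the difference was read as well. Anxa2, a calcium-dependent membrane-binding annexin, had -0.74, -0.19, -0.48 and -0.34 in motor neurons and -0.17, -0.16, 0.09 and -0.15 in glia, a difference of -0.34 ± 0.11 (SE, adjusted p = 0.192, limma). Dock11, an exchange factor for Cdc42, had -0.61, -0.30, -0.14 and -0.33 in motor neurons and 0.01, -0.06, 0.18 and -0.10 in glia. Motor neurons lay below glia in all pairs for both genes. Psmb1, a subunit of the proteasome core, had -0.37, -0.63, -0.28 and -0.09 in motor neurons and -0.10, -0.11, 0.06 and -0.11 in glia, which overlap. Galnt9, which starts mucin-type O-glycans, was at -0.26 ± 0.19 in motor neurons and -0.01 ± 0.03 in glia (SD, n = 4 pairs). The differences were -0.35 ± 0.10 for Dock11, -0.28 ± 0.10 for Psmb1 and -0.25 ± 0.08 for Galnt9 (SE), with adjusted p of 0.162, 0.261 and 0.184 (limma). Above 0 in motor neurons alone were Pdlim5, a PDZ and LIM domain scaffold, at 0.23 ± 0.10 against 0.07 ± 0.12 in glia, Lrrc8d, a subunit of the volume-regulated anion channel, at 0.19 ± 0.11 against -0.04 ± 0.11, Helz, an RNA helicase, at 0.26 ± 0.16 against -0.04 ± 0.21, and Ccdc33 at 0.25 ± 0.13 against -0.00 ± 0.21 (SD, n = 4 pairs). Their differences were 0.16 ± 0.07, 0.23 ± 0.07, 0.30 ± 0.10 and 0.25 ± 0.09 (SE), with adjusted p of 0.395, 0.191, 0.235 and 0.286 (limma). The other Ccdc33 probe was at -0.04 in motor neurons, with a difference of -0.03. All 8 of these genes were well above background in 6 or 7 of 8 motor neuron extracts. In glia, Psmb1, Galnt9, Dock11 and Lrrc8d were so in 4 of 8 extracts, Helz and Ccdc33 in 5, and Anxa2 and Pdlim5 in 6. Near the limit of 4, dim signal and a lack of effect in glia cannot be told apart.

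Glia-only effects had the smaller p. Taok1, a kinase that acts on microtubules and stress signalling, had 0.28, 0.11, -0.00 and -0.16 in motor neurons and 0.34, 0.43, 0.60 and 0.26 in glia. Ints3, a subunit of the Integrator complex, had 0.21, -0.03, -0.17 and 0.14 in motor neurons and 0.38, 0.24, 0.48 and 0.42 in glia. For Slc6a6, the taurine transporter, the values were 0.09, 0.21, 0.03 and -0.01 in motor neurons and 0.28, 0.60, 0.20 and 0.42 in glia. Within glia these 3 genes had an adjusted p of 0.0638 (limma), and the differences were -0.35 ± 0.09, -0.34 ± 0.09 and -0.29 ± 0.09 (SE). Ammecr1l was at 0.01 ± 0.22 in motor neurons and 0.50 ± 0.15 in glia (SD), with motor neuron pair 1 at 0.34 apart from the others, and differed by -0.49 ± 0.12 (SE, adjusted p = 0.135, limma). Below 0 in glia alone were Akr1cl, given above, and Nup54, a nuclear pore protein, with -0.04, 0.02, -0.02 and -0.04 in motor neurons and -0.18, -0.28, -0.21 and -0.17 in glia, a difference of 0.19 ± 0.05 (SE, adjusted p = 0.136, limma). Phc1, a Polycomb protein, was at 0.10 ± 0.17 in motor neurons and -0.49 ± 0.32 in glia (SD), but its other probe gave a difference of -0.08. Zfp560, a zinc finger protein, was at 0.03 ± 0.15 in motor neurons and -0.30 ± 0.11 in glia (SD), a difference of 0.33 ± 0.08 (SE, adjusted p = 0.135, limma).

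**Figure D3:**
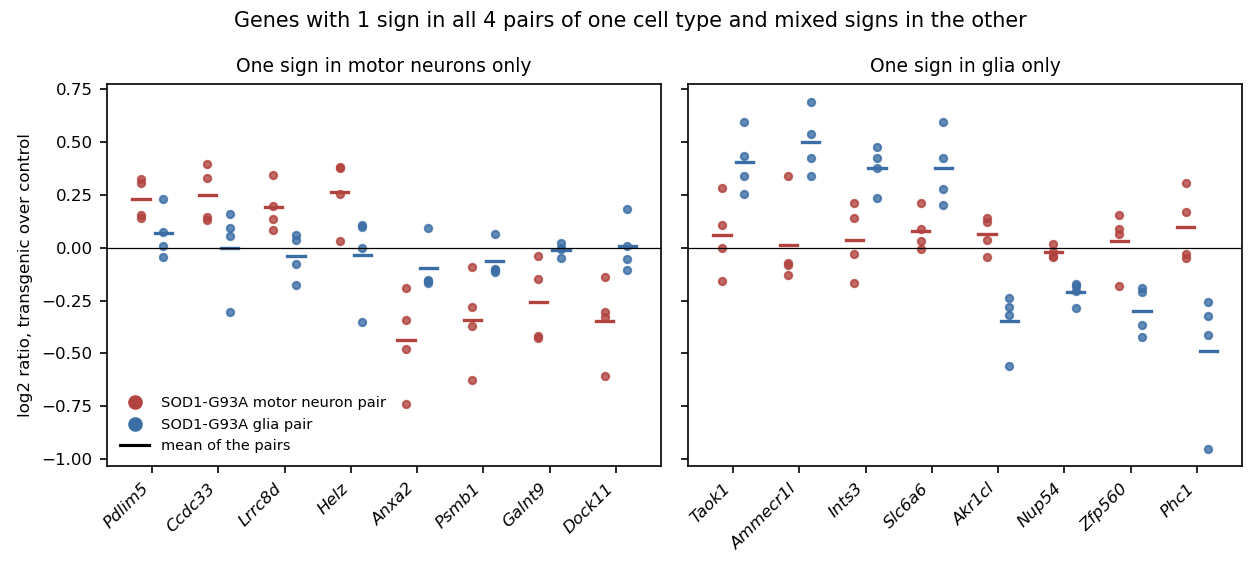
Log2 ratio of transgenic over control (vertical axis) by littermate pair for genes with 1 sign in all pairs of motor neurons alone (left panel) or glia alone (right panel), motor neurons in red left of glia in blue, with bars at the mean of 4 pairs. The glia points of Taok1, Ammecr1l, Ints3 and Slc6a6 all lie at or above 0.20, while their motor neuron points fall on both sides of 0.

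The difference ran along the scale that separates control motor neurons from control glia. That scale was taken from controls of the TAU-P301L colony, so it shares no extract with the SOD1-G93A pairs, although it shares scan sessions and the split of software version by cell type with them. Genes were split into quintiles by this scale. As log ratios of transgenic over control, the dye-swapped arrays behind it correlated at 0.37, 0.26, -0.19 and 0.07 in TAU-P301L motor neuron pairs 1 to 4. In TAU-P301L glia pairs 1 to 4 they correlated at -0.77, -0.18, -0.11 and 0.33. From the quintile highest in glia to the quintile highest in motor neurons, the median difference was 0.14, -0.00, -0.03, -0.07 and -0.13, and the share of genes below 0 was 28.0%, 50.8%, 63.1%, 72.5% and 81.9%. The genes with motor neuron pairs all above glia pairs were gathered at the glial end, with 464 of 535 in the first quintile, and so were 93 of the 111 genes of opposite sign. The reverse genes were spread more evenly, with 48 of 182 and 10 of 32 in the quintile highest in motor neurons. In motor neurons, genes of the glial end had a median ratio above 0 (0.07) and those of the neuronal end below 0 (-0.06), while in glia the medians were -0.08 and 0.05.

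Single pairs differed in this trend. The slope of the log ratio on the control scale was -0.07, -0.00, -0.19 and -0.21 in motor neuron pairs 1 to 4 and 0.10, 0.13, 0.22 and 0.15 in glia pairs 1 to 4. All glia slopes lay above all motor neuron slopes, motor neuron pairs 1 and 2 came from one scan and pairs 3 and 4 from the other, and motor neuron pair 2 was flat. Glia pair 4 was lowest at the glial end but did not keep above 0 at the neuronal end, with quintile medians of -0.15, 0.03, 0.02, -0.01 and -0.05. Without glia pairs 1 and 2 the medians of the first and last quintile were 0.20 and -0.12. They were 0.25 and -0.03 on arrays with the transgenic extract in Cy5 and 0.06 and -0.24 on those with it in Cy3. The trend by mean level over all genes was smaller, with medians of -0.01 in the dimmest quintile and -0.10 in the brightest. Level went in opposite directions within quintiles of the control scale. From the dimmest to the brightest genes, the median went from 0.04 to 0.23 in the first quintile of that scale and from -0.03 to -0.18 in the last. Receptor genes of the olfactory and vomeronasal epithelium, which are known from the nose, were looked at after their names appeared among the 111: the 233 measured in both had a median difference of 0.02, with 24 (10.3%) not overlapping above and 3 (1.29%) below, and 9 (3.86%) above 0 in motor neurons and below 0 in glia in all pairs, against 6.34%, 2.16% and 1.32% of all genes. Since they were picked for being among the 111, these shares are a description.

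The same scale was applied to the TAU-P301L mice. The difference of TAU-P301L effects between motor neurons and glia had medians of 0.10, 0.01, -0.02, -0.04 and -0.10 over the same quintiles, but those pairs share their control extracts with the scale. On a scale from the SOD1-G93A controls, which they do not share, the TAU-P301L medians of the first and last quintile were 0.08 and -0.05. A direct test of the SOD1-G93A difference against the TAU-P301L difference, added after seeing the data, passed for 0 of 13933 genes (0%) with 479 (3.44%) at an unadjusted p under 0.05 (limma, lowest adjusted p = 0.971). Model, age and strain differ together in that contrast. Of the 10 named genes with the smallest p and motor neurons above glia, the TAU-P301L difference was above 0 in 10, between 0.11 (Nbl1) and 0.47 (Xpo5). Of the 10 with motor neurons below, it was below 0 in 5 and above 0 in 5, between -0.11 (Ankrd6) and 0.15 (Psmd11). The first 10 genes, all but Ybx2, lay in the range of the quintile highest in control glia. In that quintile the TAU-P301L median over all genes was itself 0.10, beside a median of 0.17 for the 10. The share of all genes above 0 was not counted, so the shared sign does not set these genes apart.

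**Figure D4:**
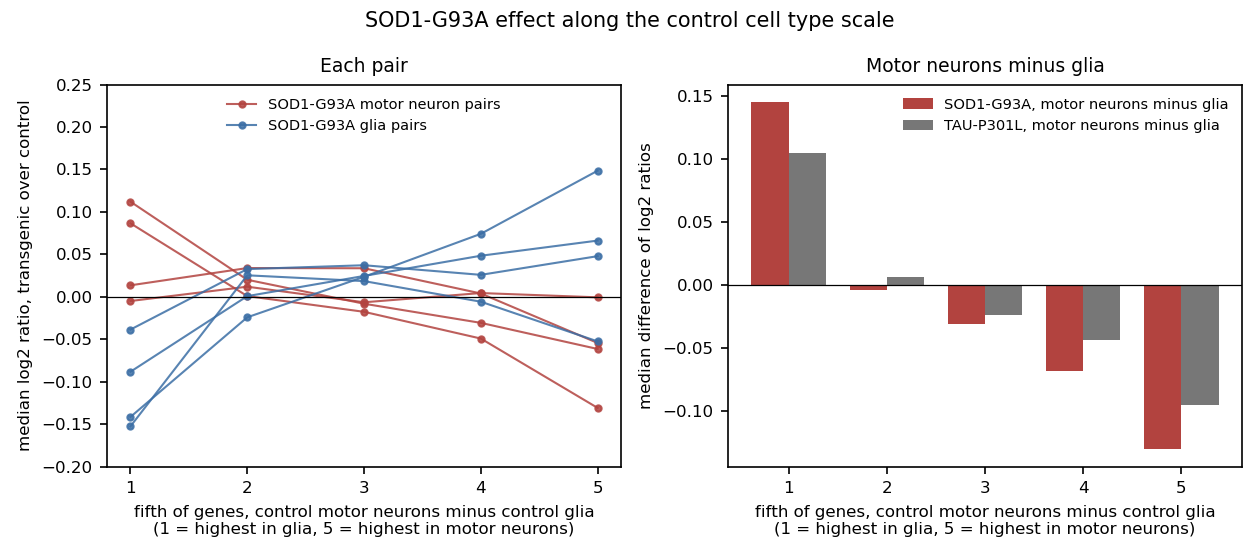
Left, median log2 ratio of transgenic over control (vertical axis) in each quintile of genes on the control scale, from highest in glia (1) to highest in motor neurons (5), with 1 line per littermate pair, motor neurons in red and glia in blue. Right, median difference, motor neurons minus glia, in the same quintiles for SOD1-G93A (red bars) and TAU-P301L (grey bars), which run from 0.14 and 0.10 in the first quintile to -0.13 and -0.10 in the last.

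Gene lists were then read over the members measured in both cell types, beside all 8434 genes, whose median difference was -0.03 with 59.3% below 0, and beside the quintile of the control scale in which the list's own median fell. The quintile values were not matched to the lists for mean level. No member of any of 32 lists passed the test of the difference. Cholesterol synthesis, alone among the 32 lists, had a median effect below 0 in every motor neuron pair and above 0 in every glia pair. Its median log2 ratio was -0.19, -0.12, -0.07 and -0.11 in motor neuron pairs and 0.03, 0.06, 0.06 and 0.08 in glia pairs. With the mean over members in place of the median, motor neuron pair 3 was at 0.01. The median of the members' mean ratios was -0.05 in motor neurons (11 of 17 below 0) and 0.06 in glia (15 of 17 above 0). The difference was below 0 in 15 of 17 members, with a median of -0.17, against 63.1% and -0.03 in its quintile, the middle one. Mvd, the mevalonate diphosphate decarboxylase, had -0.33, -0.20, -0.07 and -0.13 in motor neurons and -0.04, 0.04, 0.25 and -0.02 in glia. All its motor neuron pairs lay below all glia pairs, with a difference of -0.24 ± 0.08 (SE, adjusted p = 0.235, limma).

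Axonal transport and cytoskeleton genes lay toward the neuronal end of the control scale, where 72.5% (quintile 4) and 81.9% (quintile 5) of all genes were below 0. Kinesin, dynein and dynactin genes had a median of -0.06 in motor neurons and 0.07 in glia, with a median difference of -0.23 and 18 of 23 below 0 (78.3%), beside a median of -0.07 in quintile 4. One member stood on the other side: Klc2, a kinesin light chain, had -0.06, -0.03, 0.26 and 0.55 in motor neurons and -0.25, -0.43, -0.34 and -0.75 in glia, a difference of 0.62 ± 0.15 (SE, adjusted p = 0.135, limma). Neurofilaments, tubulins and microtubule-associated proteins had a median difference of -0.15, with 18 of 21 below 0 (85.7%), beside -0.13 in quintile 5. Here too the member with the smallest p among those measured in both opposed the list, as Map1b, a microtubule-associated protein, had 1.51, 1.63, 0.70 and 0.07 in motor neurons and 0.32, 0.26, 0.21 and -0.02 in glia. Its other probe gave a difference of -0.17 against 0.78 ± 0.27 (SE). Prph, the intermediate filament peripherin of motor and sensory neurons, was well above background in motor neurons (5 of 8 extracts) and in 0 of 8 glia extracts, and had -0.39, -0.21, -0.22 and -0.12 in motor neurons. Genes of the axon initial segment and node were mixed, with 8 of 13 below 0, while 2 of its organisers were higher in motor neurons in all pairs: Sptbn4, beta-IV spectrin, with a difference of 0.65 ± 0.16, and Trim46, which bundles microtubules there, with 0.26 ± 0.08 (SE). Bsn, the presynaptic scaffold bassoon, differed by 0.70 ± 0.16 (SE, adjusted p = 0.135, limma), although synaptic vesicle and release genes had a median of -0.13, beside -0.13 in quintile 5.

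Protein quality control lists lay toward the neuronal end too. Proteasome genes had a median of -0.14 in motor neurons and -0.02 in glia, with 23 of 27 differences below 0 (85.2%). Ubiquitin genes and deubiquitinases had -0.11 in motor neurons and 0.05 in glia (14 of 18 below 0, or 77.8%), and heat shock proteins and co-chaperones -0.07 and 0.04 (24 of 29 below 0, or 82.8%). The median differences of -0.16, -0.14 and -0.14 stand beside -0.07, -0.07 and -0.13 in quintiles 4, 4 and 5. The heat shock list thus lay at the level of its quintile. Within quintile 4 the median was -0.05 for the dimmest genes by mean level and -0.15 for the brightest. An unadjusted p under 0.05 (limma) with motor neurons below was found for 1 of 27 proteasome, 3 of 18 ubiquitin and 2 of 29 heat shock members. Over all genes the share was 4.75%, which the ubiquitin list exceeded on these 3 members. Dnajb6, a co-chaperone, differed by -0.28 ± 0.12 (SE), and its other probe by -0.10. On the other side Ube2s, an E2 enzyme of the anaphase-promoting complex, differed by 0.55 ± 0.18 (SE), and its other probe by 0.41. Hsf1, the heat shock transcription factor, differed by 0.80 ± 0.29 (SE) with motor neuron pair 4 dropped, and its other probe by 0.08. Chac1 and Trib3, both targets of ATF4 in the amino acid response, lay on opposite sides, with -0.46 ± 0.16 and 0.47 ± 0.17 (SE), and their list had a median difference of -0.07. Lysosome and autophagy genes had a median difference of -0.09 (16 of 25 below 0), with Atg12, a ubiquitin-like protein of autophagosome formation, at -0.34 ± 0.13 (SE). Other Atg12 probes gave -0.07 and -0.11.

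Mitochondrial and ribosomal lists lay near the median of all genes with loess but not with median centring. Respiratory complex I had a median difference of 0.03 (13 of 27 below 0), complexes II to V 0.03 (13 of 29) and the cytosolic ribosome 0.03 (25 of 60). With median centring in place of loess they were at -0.60, -0.59 and -0.51, against -0.14 for all genes. This shift was not particular to them, as every list was lower with median centring than with loess. Cholesterol synthesis was then at -0.59, kinesin, dynein and dynactin genes at -0.57, motor neuron markers at -0.56 and the proteasome at -0.47. Single members were positive, namely Cox4i1, a subunit of cytochrome c oxidase, at 0.77 ± 0.18 with motor neuron pair 2 dropped and Ndufa12 of complex I at 0.43 ± 0.14 (SE), but with median centring these differences turned to -0.45 and -0.28, and the other 2 Ndufa12 probes gave 0.00 and -0.08. Regulators of mitochondrial biogenesis were split between Esrrg, an orphan nuclear receptor, with -0.11, -0.02, 0.32 and 0.85 in motor neurons and -0.21, -0.68, -0.46 and -0.72 in glia, and its coactivator Ppargc1a, which had -0.08, -0.10 and 0.07 in the 3 motor neuron pairs with a value and 0.21, 0.28, 0.41 and 0.23 in glia. All glia pairs of Esrrg were below all motor neuron pairs, and all glia pairs of Ppargc1a above, but the other Ppargc1a probe gave a difference of 0.01. Slc16a1, the lactate and ketone body transporter, differed by -0.31 ± 0.11 (SE), with glycolysis and lactate genes at a median of -0.08 (11 of 15 below 0).

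Genes whose human counterparts are mutated in amyotrophic lateral sclerosis had a median difference of -0.06, with 10 of 18 below 0. Ang, the ribonuclease angiogenin, had -0.06, -0.04, 0.65 and 0.70 in motor neurons and -0.22, -0.94, -0.42 and -0.88 in glia, a difference of 0.93 ± 0.25 (SE, adjusted p = 0.135, limma). The groups did not overlap on this probe, and a dimmer probe of Ang gave -0.05. Spliceosome and hnRNP genes had a median difference of -0.10 (23 of 28 below 0), while Snrpg, a core protein of spliceosomal particles, was at 0.23 ± 0.13 in motor neurons and -0.51 ± 0.32 in glia (SD) and opposed the list. Hnrnpu differed by -0.66 ± 0.22 on its brightest probe and by 0.10 on the other. Immediate early and axon injury genes had a median difference of -0.16 (13 of 16 below 0). Arc, an activity-induced gene of neurons, had -0.18, -0.13, -0.19 and 0.06 in motor neurons and 0.23, 0.30, 0.30 and 0.15 in glia, which did not overlap. Grin3b, a glutamate receptor subunit of motor neurons, had -0.24, -0.58 and -1.30 in the 3 motor neuron pairs with a value and -0.32, 0.29, 0.91 and 0.61 in glia, which overlapped.

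Markers of cell types were read in the same way. Motor neuron markers had a median log2 ratio of -0.21 in motor neurons and 0.01 in glia, with 12 of 15 differences below 0 (80%) and a median difference of -0.27. The list fell in quintile 5 of the control scale, where 81.9% of all genes were below 0 and the median was -0.13. The share below 0 was thus at the level of its quintile. By pair, their median was -0.29, -0.12, -0.12 and 0.02 in motor neurons and -0.13, -0.33, 0.49 and -0.03 in glia, which overlapped. In contrast, the 7 interneuron markers measured in both, a list that also fell in quintile 5, had a median difference of 0.13 and 0 below 0. Their pair medians were 0.14, 0.28, 0.21 and -0.35 in motor neurons and -0.03, -0.01, 0.01 and -0.14 in glia, which overlapped too. Astrocyte (-0.02, 8 of 13 below 0), oligodendrocyte (-0.00, 8 of 13) and microglia markers (0.03, 3 of 10) lay close to the median of all genes with loess. With median centring they were at -0.54, -0.14 and -0.05, against -0.14 for all genes. The microglial receptor gene Trem2 nevertheless had -0.01, -0.02, 0.09 and -0.10 in motor neurons and 0.20, 0.13, 0.24 and 0.21 in glia, with no overlap and a difference of -0.20 ± 0.07 (SE, adjusted p = 0.259, limma). Endothelial and pericyte markers had a median difference of -0.14 (8 of 10 below 0). Flt1, a receptor for vascular endothelial growth factor, was at 0.13 ± 0.38 in motor neurons and 0.76 ± 0.49 in glia (SD, n = 4 pairs), while 2 further Flt1 probes gave differences of -0.02 and -0.17 against -0.63 ± 0.28 (SE). Kdr, the other receptor, was at -0.00 ± 0.07 in motor neurons and 0.26 ± 0.22 in glia, where it was well above background in 3 of 8 extracts. What part such markers have in the results was not tested.

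Several list medians rested on single pairs. Without glia pairs 1 and 2 the median difference was -0.48 for motor neuron markers, 0.16 for oligodendrocyte markers, -0.06 for endothelial markers, -0.02 for synaptic vesicle genes, -0.09 for heat shock proteins, -0.01 for the amino acid response and 0.02 for the axon initial segment. Without glia pair 3 it was -0.03 for motor neuron markers, 0.04 for interneuron markers, -0.15 for kinesins, -0.08 for neurofilaments, -0.10 for immediate early genes, -0.01 for glycolysis and 0.01 for the disease genes. Without motor neuron pair 4 it was -0.07 for the proteasome, -0.05 for ubiquitin genes, -0.09 for heat shock proteins, -0.06 for the spliceosome and 0.31 for interneuron markers. Cholesterol synthesis was at -0.08 without glia pair 4, synaptic vesicle genes at -0.03 without motor neuron pair 1, endothelial markers at -0.02 without motor neuron pair 2 and lysosome genes at -0.01 without glia pair 2.

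**Figure D5:**
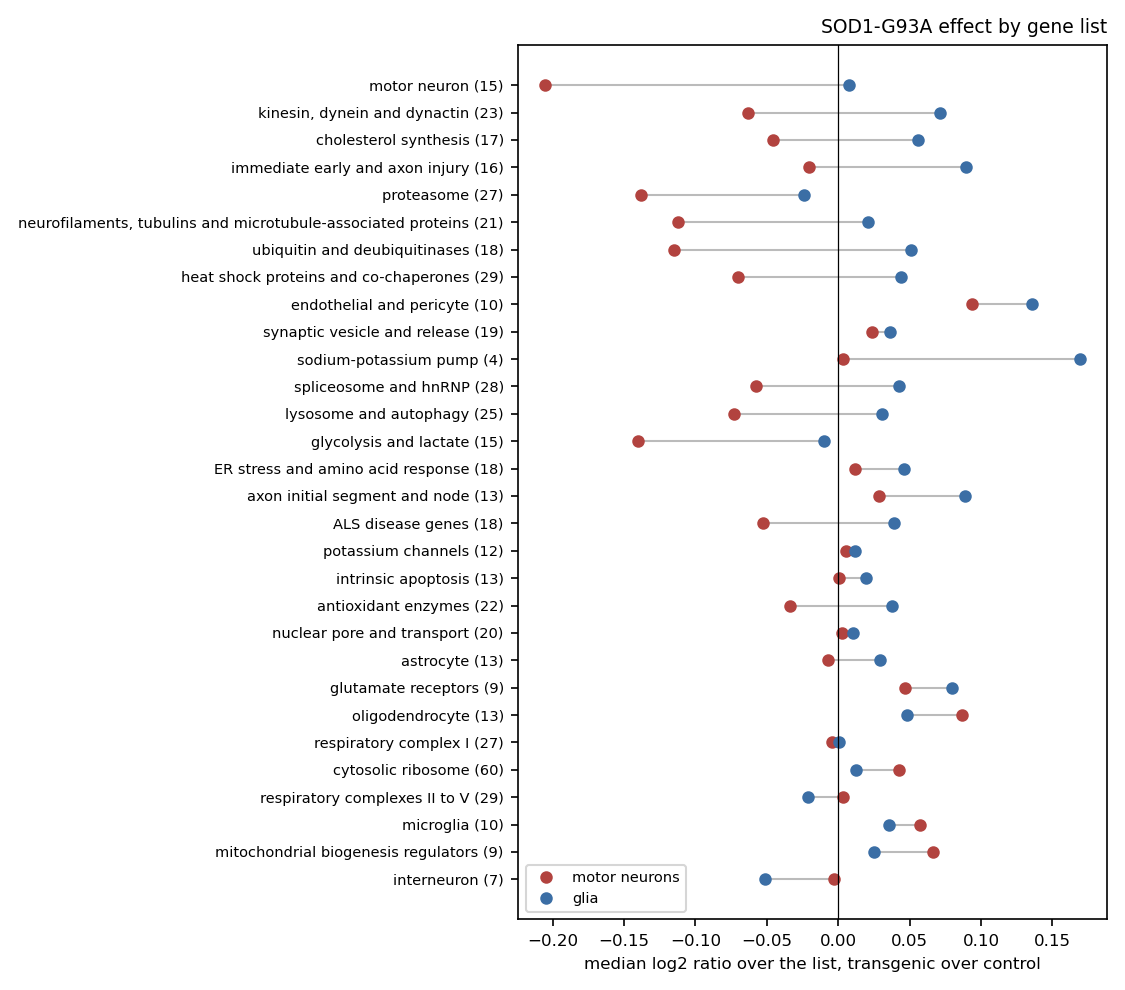
Median log2 ratio of transgenic over control (horizontal axis) over the members of each list measured in both cell types (number in brackets), in motor neurons (red) and glia (blue), for the 30 lists with at least 4 such members, ordered by the median difference with the lowest at the top. Motor neurons lie left of glia in most lists, most widely for motor neuron markers at -0.21 against 0.01.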

How the data were processed

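Expression was measured on 2-colour Agilent 44K arrays. The deposited scanner files hold spot intensity and, as a log10 ratio, Cy5 against Cy3, made by the authors with Agilent Feature Extraction (8.5.1.1 for motor neurons and 9.5.1.1 for glia, per the file headers, and 8.5.1.1 for all per the submitters' processing notes). The deposited series matrix holds the log10 ratio rounded to 1 decimal and already turned to transgenic over control, as a comparison with the scanner ratio showed (absolute r of 0.982 to 0.999, median 0 in each column, 0 columns unmatched). From mean intensity and local background, log2 ratios were made with normexp (offset 50) and loess in limma 3.58.1 (R 4.3.3), with control spots at weight 0 and spots marked as outliers left out. Ratios were turned to transgenic over control and the 2 arrays of each pair were averaged, and a pair lacking either array was left missing. For genes with several probes, the brightest was used. Of 35 other probes of 27 genes picked for naming, 23 gave a difference of the same sign and 12 of the opposite sign. Probes were named through RefSeq GRCm38.p6 by accession (23703), symbol (6524) or synonym (2857), and 8090 kept the name in the files.

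All 16 pairs of the series entered 1 limma fit with a mean for each of 4 groups, over genes well above background in at least 4 of 8 extracts of any group, and p-values were adjusted over the genes tested in each comparison at a threshold of 0.05. The labels call the pairs biological replicates. The number of arrays limits the precision. Single-channel levels came from Aquantile normalization. Samples with the same replicate number were checked for pairing: deviations of motor neuron and glia pairs 1 to 4 correlated at -0.12, 0.05, 0.21 and 0.25, so the numbers were not taken to pair them. The fit was tested on simulated data. Genes were named by a rule: Sod1, the 10 smallest p of the difference in each direction, 8 in each direction of opposite sign, 4 per direction and cell type of effects in one cell type, and up to 2 of each list. Genes called only in another setting are named after seeing their values, and not every gene that meets the rule is reported here. The members and lists were chosen with earlier results of these data known. Promoters were matched by symbol to RefSeq. Alternatives covered background, dye and within-array normalization, the series matrix, outlier spots, the filter, the probe, the samples, the replicate block, scan, dye orientation, each pair and the model of the spread.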

Additional observations from a re-analysis of the deposited data

Results flagged for a closer look

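Among 128 groups of 4 pairs for 68 genes, 10 had 1 pair whose gap to the nearest other, over the whole range, exceeded Dixon's 95% critical value, and chance gives about 1 in 20 groups such a gap. In motor neuron pair 3, Nbl1 had a log2 ratio of 0.75 against 0.23 to 0.32 in the other 3 pairs. In glia pair 1, Pik3r6 had a log2 ratio of 0.028 against 0.24 to 0.25 in the other 3 pairs. In motor neuron pair 1, Ammecr1l had a log2 ratio of 0.34 against -0.13 to -0.07 in the other 3 pairs. In glia pair 3, Fbxw11 had a log2 ratio of 0.32 against 0.08 to 0.12 in the other 3 pairs. In glia pair 3, Kifap3 had a log2 ratio of 0.57 against 0.08 to 0.14 in the other 3 pairs. In motor neuron pair 1, Eif3a had a log2 ratio of -0.46 against -0.10 to -0.03 in the other 3 pairs. In glia pair 3, Anxa2 had a log2 ratio of 0.092 against -0.17 to -0.15 in the other 3 pairs. In glia pair 3, Psmb1 had a log2 ratio of 0.065 against -0.11 to -0.10 in the other 3 pairs. In glia pair 4, Ndufa12 had a log2 ratio of 0.19 against -0.34 to -0.30 in the other 3 pairs. In glia pair 4, Slc16a1 had a log2 ratio of -0.072 against 0.26 to 0.32 in the other 3 pairs. Of the 10, 5 were glia pairs 3 or 4 with the higher value, and the cause was not tested. The difference between cell types was tested with limma and passed for 0 of 13933 genes (1611 at an unadjusted p under 0.05).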

How the results depend on the processing

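No difference between cell types passed under any of 17 planned or added settings or the 8 fits that left out a pair, the replicate block among them (0 genes, lowest adjusted p = 0.160). The effect in motor neurons passed for 19 genes without background correction, 1 without the filter on dim probes and 1 with the spread taken over all genes, and for 0 to 1 without single pairs. The effect in glia passed for 5 genes with scan as a random block, 8 with the spread over all genes and 1 without the 2 glia pairs of discordant dye swap, and for 0 to 2 without single pairs. The 111 and 32 genes of opposite sign became 26 and 30 with median centring, 14 and 7 with the series matrix, 17 and 7 when well above background in all 8 extracts, 190 and 66 without the filter, 280 and 11 on Cy5 arrays, 5 and 37 on Cy3 arrays, and 245 and 154 without glia pairs 1 and 2. With a single pair left out, which asks less of each gene, they ran from 117 to 282 and from 38 to 97, both lowest without glia pair 3 and highest without motor neuron pair 1. Beyond 1.5 times the main count were also those without motor neuron pair 2 (243 and 87) and glia pair 2 (172 and 76), and, for the reverse genes, without motor neuron pairs 3 and 4 (63 and 73) and glia pairs 1 and 4 (66 and 84). The first and last quintile of the control scale had medians of 0.038 and -0.40 with median centring, which also moved the median of all genes to -0.14, 0.36 in the first with the scanner ratio, 0.37 with the series matrix, 0.25 and -0.028 on Cy5 arrays and 0.061 and -0.24 on Cy3 arrays. The gap between these quintiles was 0.28, and 0.32 on the scale of SOD1-G93A controls. Of 1688 differences recomputed for 68 genes, 10 turned sign, although settings that change only the spread or the filter could not turn one. Sod1 was at -0.061 without background correction, -0.29 with the scanner ratio, -0.90 with median centring, -0.25 with the series matrix, -0.061 on Cy3 arrays and -0.15 without glia pairs 1 and 2, and ran from -0.087 (without glia pair 2; -0.045 without motor neuron pair 4) to 0.157 (without glia pair 4). Cox4i1 and Ndufa12 turned to -0.45 and -0.28 with median centring. List medians moved by less than the spread between pairs in 750 of 800 cases, and 14 lists kept their sign in all 25 settings. Settings that changed only the test or the genes tested left every list median as it was, so those cases could not move. They were the 8 SOD1-G93A pairs alone, the replicate block, both models of the spread, no filter and the filter on both cell types. Keeping outlier spots changed no list median either. The causes were not tested. Dim signal over background limits the 3499 genes measured in motor neurons alone and the 679 in glia alone.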
